A study of Mus musculus with 11 samples.

Results

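The 51 genes described here lie on distal mouse chromosome 6 around Tnfrsf1a, which encodes TNF receptor 1 (TNFR1), the receptor through which most cells sense soluble TNF. They were taken by name, out of 35683 genes in the deposited table, they span chr6:113378115-128300823 (GRCm38), and 340 of the table's 113193 transcripts belong to them. The list of names was drawn up with earlier results of these data in view, among them differences between the genotypes in gene sums and in single transcripts. Differences of the 51 genes between genotypes are therefore given as descriptions, with no test. RNA came from the whole colon wall of 6 Tnfr1-/- and 5 wild-type (WT) mice, all 2 weeks old, with 1 library per mouse. The labels name no treatment, and they do not give the Tnfr1-/- allele, its stem cell strain, its backcross, or the sex, litter or cage of the mice.

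A gene disrupted in embryonic stem cells is inherited together with the stretch of chromosome next to it. Neighbours of such a gene therefore share their history with the null allele until recombination parts them. The neighbours of Tnfrsf1a include housekeeping genes (Gapdh, Tpi1), chromatin and ribosome factors (Chd4, Nop2), immune genes (Ptpn6, Cd27) and, farther toward the centromere, genes of endosomes, actin and sugar chains (Washc2, Arpc4, B4galnt3). Neither genomic DNA nor sequence variants were measured in these libraries.

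Abundance is given as the deposited value, TPM (an abundance corrected for transcript length and depth) scaled per library with a size factor, summed over the transcripts of a gene. The libraries held an estimated 27.6 to 42.0 M reads each. Tnfrsf1a (chr6:125349362-125362484) fell to 19.0 to 28.0 in Tnfr1-/- libraries, against 61.7 to 73.1 in WT libraries, so each library matched its label. The difference on the log2(abundance + 0.5) scale was -1.57 (SE 0.10, limma adjusted p = 8.5e-05), and Tnfrsf1a was the 1 gene of 15079 tested that passed an adjusted p of 0.05. Epithelial, goblet cell and smooth muscle markers, which define the colon wall, were present in every library, and no marker of the 11 lists used was at 0 throughout. Some libraries stood apart in their makeup. The summed epithelial markers were 4456 and 5083 in WT replicates 1 and 2, against 2889 to 3974 in the other 9 libraries, and their summed fibroblast markers were 598 and 596, against 762 to 1283. Not every marker followed these sums. Krt8, Epcam, Cdh1, Vil1 and Krt20 were highest in WT replicates 1 and 2, while Cdx2 was highest in another WT library. Col1a1, Col1a2 and Dcn were lowest in those replicates. Lum was lowest in WT replicate 2 alone, and Pdgfra was lowest in a Tnfr1-/- library. Skeletal muscle markers summed to 3933 in Tnfr1-/- replicate 2, against 221 to 1191 elsewhere. In such whole-tissue RNA, fewer cells of a type and less RNA per cell cannot be told apart. Nothing in the labels says how far the mice were related, so the spread between libraries may include litter or cage.

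Of the 51 genes, 49 were abundant enough to test (at least 1 in at least 5 libraries). Mean abundance was higher in Tnfr1-/- colons for 23 of the 51 and lower for 28, and the median difference of the 49 was -0.01 on the log2 scale, as it was over all 15079 genes. Differences ran from -0.73 for Depp1 to 0.40 for Acrbp, and 38 genes differed by less than 0.2. In 42 genes the 95% interval of the difference stayed inside 1.5-fold in either direction. No gene of the list passed the adjusted threshold, the background being 0.00663% of all genes. At an unadjusted p under 0.05 stood 16 of the 49, or 32.7%, against 9.37% of all genes. The 2 groups of libraries did not overlap for 5 of them, beside a background of 1.49% in either direction. Mbd4, Tmcc1, Tmem72 and Foxj2 lay higher in every Tnfr1-/- library than in any WT library (background 0.723%), and Depp1 lay lower (background 0.769%). Because such differences entered the choice of the list, nothing is read from these shares.

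By position, of the 13 tested members at 113 to 117 Mb, 12 had an unadjusted p under 0.05 and 4 had groups that did not overlap. Of the 26 tested members at 124.6 to 125.5 Mb, which surround Tnfrsf1a, 2 and 0 did. Members of either stretch were chosen with these values known, so the counts do not compare the stretches. Of the tested genes that are not in the list, 5 of 37 at 113 to 117 Mb (13.5%) had an unadjusted p under 0.05 and 1 had groups that did not overlap, and of 10 at 124.6 to 125.5 Mb, 3 and 1 did. Counting members and the rest together, 5 of 43 genes within 1 Mb of Tnfrsf1a had an unadjusted p under 0.05 (11.6%), as did 10.3% of 58 within 2.5 Mb, 11.0% of 100 within 5 Mb and 14.8% of 162 within 10 Mb. On chromosome 6 outside the whole region taken around the list, the share was 7.97% of 552 genes. The 5 Mb and 10 Mb windows run past that region on the telomere side. Some genes can therefore count in both, so the shares do not set near genes against far ones. At the edges of the list, Arpc4 is the first member and averaged 142.5 in Tnfr1-/- and 161.5 in WT, while Tada3, the nearest tested protein-coding gene just outside it, averaged 23.8 in Tnfr1-/- and 23.1 in WT. Tead4 is the last and averaged 4.08 in Tnfr1-/- and 3.50 in WT, while its tested neighbour Tulp3, just outside, averaged 7.44 in Tnfr1-/- and 6.69 in WT.

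**Figure D1:**
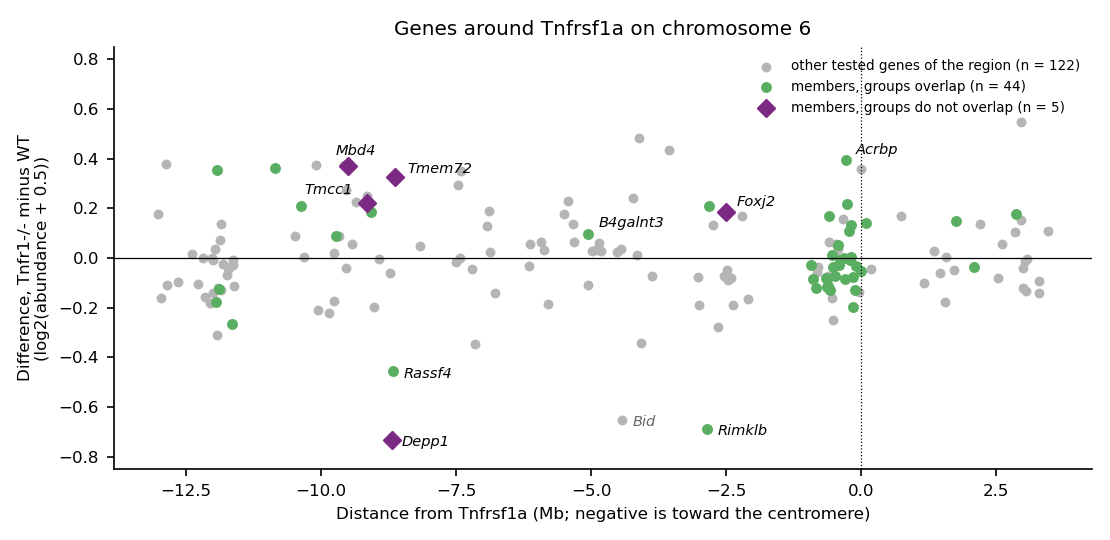
Difference between Tnfr1-/- and WT (vertical axis, log2(abundance + 0.5)) of each tested gene of the region against its distance from Tnfrsf1a in Mb (horizontal axis; Tnfrsf1a itself, at -1.57, is not drawn). Diamonds are the 5 members whose groups do not overlap, green points the other 44 tested members and grey points the 122 tested genes of the region outside the list. Depp1 at -0.73 is the lowest point, and the highest member, Acrbp at 0.40, lies close to Tnfrsf1a.

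Among the members, the widest shift in transcript shares was in B4galnt3, where the genotypes differed in which transcript was counted. B4galnt3 encodes a Golgi enzyme that adds N-acetylgalactosamine to N-acetylglucosamine, forming the LacdiNAc sugar unit. The gene (ENSMUSG00000041372, chr6:120203073-120294559, minus strand) has 3 annotated transcripts of 20 exons each. B4galnt3-201 and B4galnt3-202 share 18 identical exons between the first and the last, and their first exons lie 51.7 kb apart. Both first exons are shown because they are where the counted transcripts part. Capitals mark the first exon (chr6:120294391-120294559 for B4galnt3-201, chr6:120242563-120242643 for B4galnt3-202, both minus strand, GENCODE M21), and lower case marks the first 20 bases of the shared exon 2, written 5′ to 3′.
B4galnt3-201: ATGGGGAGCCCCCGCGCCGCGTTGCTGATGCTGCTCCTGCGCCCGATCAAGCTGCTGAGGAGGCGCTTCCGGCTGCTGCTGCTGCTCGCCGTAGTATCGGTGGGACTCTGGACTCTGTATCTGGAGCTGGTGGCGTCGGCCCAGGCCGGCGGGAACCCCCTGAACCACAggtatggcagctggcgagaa
B4galnt3-202: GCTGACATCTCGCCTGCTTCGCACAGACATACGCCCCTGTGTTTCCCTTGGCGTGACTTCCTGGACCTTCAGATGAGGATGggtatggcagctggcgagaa
The first exon of B4galnt3-201 holds 169 bases and opens with the start codon of the annotated protein. The first exon of B4galnt3-202 holds 81 bases, and GENCODE annotates this transcript as processed, with no coding sequence. B4galnt3-203 starts in the same upstream exon as B4galnt3-201, lacks 3 bases at the start of exon 14 and ends 716 bases earlier.

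B4galnt3-201 had a lowest, median and highest abundance of 7.32, 10.5 and 14.4 in the 6 Tnfr1-/- libraries, against 2.62, 0.355, 2.41, 2.35 and 2.77 in the 5 WT libraries. Every Tnfr1-/- library was thus above every WT library, by 2.20 on the log2 scale (SE 0.34). B4galnt3-202 ran the other way. It had 1.55, 2.25 and 7.86 as its lowest, median and highest value in Tnfr1-/-, against 10.9, 16.3, 7.90, 8.36 and 9.51 in WT, a difference of -1.65 (SE 0.38). The highest Tnfr1-/- library, replicate 2 at 7.86, lay just under the lowest WT library at 7.90. B4galnt3-203 averaged 2.48 ± 0.829 in Tnfr1-/- and 2.57 ± 0.986 in WT (SD, n = 6 and n = 5), and the groups overlapped. As shares of the gene sum, B4galnt3-201 made up 65.1% ± 13.1 in Tnfr1-/- and 14.9% ± 7.41 in WT, and B4galnt3-202 made up 20.1% ± 11.9 in Tnfr1-/- and 68.3% ± 8.79 in WT. The background is 9764 genes with several transcripts and a mean of at least 5. Of them, 1.67% had a transcript whose share shifted by at least 15 points, as did 0.442% of their transcripts. In 2 genes (0.0205%), B4galnt3 among them, a transcript shifted by at least 45 points. B4galnt3 was put on the list with its shift known, so its place against this background is a description only.

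Grouped by first exon, transcripts from the upstream exon made up 64.2% to 88.9% of B4galnt3 abundance in Tnfr1-/- and 19.6% to 40.4% in WT. The upstream sum averaged 13.1 ± 3.04 in Tnfr1-/- and 4.67 ± 0.751 in WT, and the downstream transcript 3.48 ± 2.56 in Tnfr1-/- and 10.6 ± 3.39 in WT. The gene sums of the groups overlapped, at 16.6 ± 3.96 in Tnfr1-/- and 15.3 ± 2.88 in WT (log2 difference 0.10, SE 0.17). Within the Tnfr1-/- group, replicates 2 and 4 had the lowest upstream shares (64.2% and 65.0%), and the other 4 libraries lay between 87.0% and 88.9%. WT replicate 2 had the lowest B4galnt3-201 value, the highest gene sum of its group (20.3) and the highest epithelial marker sum of all libraries (5083). The part of cell makeup in that library's values was not tested.

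The sequence that can part these transcripts is short. Of the 31-base words of B4galnt3-201 and B4galnt3-202, 3478 are shared, 169 occur in B4galnt3-201 alone of the pair, and 102 in B4galnt3-202 alone. No word of B4galnt3-201 is absent from every other annotated transcript, since each stretch of it is also in B4galnt3-202 or B4galnt3-203. D330020A13Rik, named for its position, runs on the opposite strand across the first exon of B4galnt3-201 and averaged 1.93 ± 0.501 in Tnfr1-/- and 2.15 ± 0.766 in WT. The library kit keeps strand, but the strand setting of the quantification is not given in the sources used here.

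**Figure D2:**
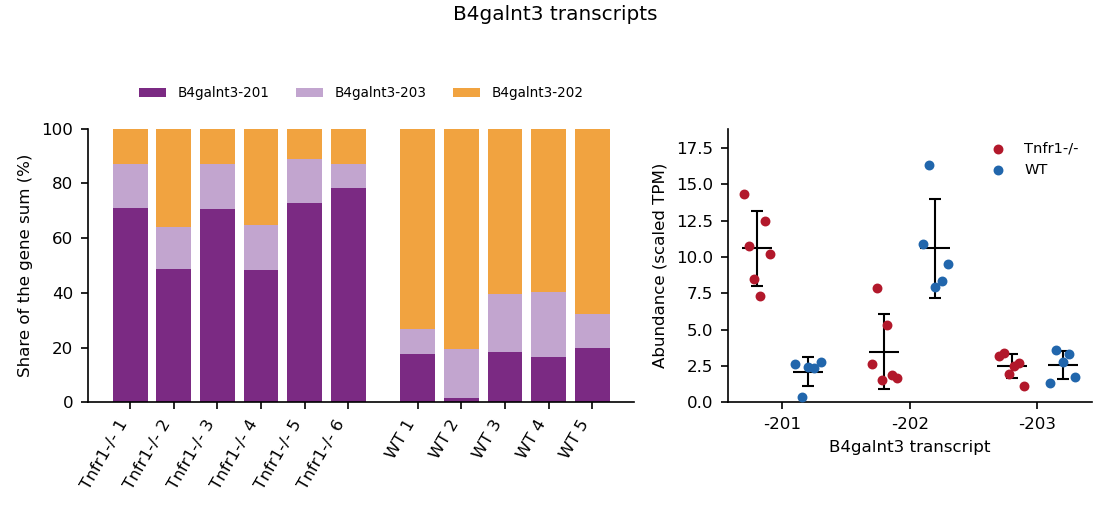
Left, share of the B4galnt3 gene sum (%, vertical axis) held by each of its 3 transcripts in each library. Right, abundance (scaled TPM) of each transcript per library, with group mean and SD. B4galnt3-201 holds 48.3% to 78.5% in Tnfr1-/- libraries and 1.75% to 19.7% in WT libraries.

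Washc2 also differed in transcript shares, by less and with no fall in the abundance of its main transcript. Its protein, also called FAM21, is the subunit that ties the WASH actin-nucleating complex to endosomes. The gene (chr6:116208038-116262686, plus strand) summed to 21.4 ± 1.46 in Tnfr1-/- and 18.8 ± 2.19 in WT, and the groups overlapped. Its main transcript, Washc2-201, averaged 15.2 ± 1.08 in Tnfr1-/- and 15.3 ± 0.9303 in WT. Washc2-206, which GENCODE annotates as keeping introns that Washc2-201 removes, had 2.16, 2.92 and 3.72 as its lowest, median and highest value in Tnfr1-/-, against 0.958, 0.774, 0.893, 1.04 and 1.72 in WT. No WT library reached the lowest Tnfr1-/- library, and the log2 difference was 1.15 (SE 0.17). Its share of the gene sum was 13.96% ± 3.02 in Tnfr1-/- and 5.66% ± 1.41 in WT.

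Washc2-206 keeps 2 introns, chr6:116254219-116254412 (194 bases) and chr6:116254494-116255048 (555 bases). The shorter is shown because its bases are among those that mark the transcript, with the intron in capitals and 15 bases of exon on each side in lower case, plus strand, 5′ to 3′.
Washc2-206: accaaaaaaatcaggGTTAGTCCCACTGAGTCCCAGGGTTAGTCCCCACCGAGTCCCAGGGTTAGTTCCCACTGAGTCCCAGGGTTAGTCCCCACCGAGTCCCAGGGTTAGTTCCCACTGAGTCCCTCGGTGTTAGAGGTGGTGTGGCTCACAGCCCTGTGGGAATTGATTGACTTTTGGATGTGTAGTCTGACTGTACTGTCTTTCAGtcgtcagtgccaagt
Of the 4916 words of 31 bases in Washc2-206, 800 occur in no other annotated transcript, so its value rests on more distinct sequence than that of B4galnt3-201. Washc2-213, a shorter transcript that also starts in intron sequence, averaged 1.36 ± 0.434 in Tnfr1-/- and 0.552 ± 0.359 in WT, with groups that did not overlap. These were small numbers of reads, an estimated 2.88 to 29.2 per library.

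Over all transcripts of the list, 151 were tested, none was called (background 0.00901%), 20 had an unadjusted p under 0.05 (background 8.26%), and 9 had groups that did not overlap (background 1.2%). Of these, 6 lay higher (background 0.556%) and 3 lower (background 0.643%) in Tnfr1-/-. B4galnt3-201, B4galnt3-202 and Washc2-206 also differed by at least 1 on the log2 scale, as 0.108% of all tested transcripts did. Among the 253 tested transcripts of region genes outside the list, 1 transcript, of Brpf1, did so. Differences in single transcripts entered the choice of the list, so nothing is read from these shares.

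Depp1 and Rimklb had the widest differences in a gene sum among the members, with Tnfr1-/- means at 0.591 and 0.505 of the WT mean. Depp1 encodes a small protein induced by progesterone in decidua and by FOXO factors. The gene (chr6:116650609-116652794, plus strand) had 4.30, 6.21 and 8.18 as its lowest, median and highest value in Tnfr1-/-, against 9.15, 10.03, 10.1, 12.7 and 12.1 in WT. Every Tnfr1-/- library was lower than every WT library, and the log2 difference was -0.73 (SE 0.15). Its transcript Depp1-201, chosen for mention after its values were seen, averaged 5.03 ± 1.17 in Tnfr1-/- and 9.26 ± 1.96 in WT, while Depp1-202 averaged 1.36 ± 0.736 in Tnfr1-/- and 1.36 ± 0.555 in WT. The 2 transcripts differ by 3 bases at the start of exon 2 and by 19 bases at the 5′ end, so few reads can part them.

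Rassf4, a Ras-association domain protein, is transcribed from the opposite strand across the whole of Depp1, over 2186 bases. It also had lower values, with 3.21, 3.97 and 5.49 in Tnfr1-/- (lowest, median, highest) and 5.22, 5.02, 6.70, 6.47 and 6.29 in WT. The groups overlapped only through Tnfr1-/- replicate 5, and the log2 difference was -0.46 (SE 0.13). The overlap is that of the gene spans. Whether exons of Depp1 and Rassf4 overlap was not examined and the strand setting is not known, so sharing of reads was not tested.

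Tmem72, next to Rassf4, lay on the other side. It encodes a membrane protein known from kidney. It had 3.77, 3.93 and 4.24 in Tnfr1-/- (lowest, median, highest), against 2.93, 3.56, 2.75, 3.03 and 3.02 in WT, and no WT library reached the lowest Tnfr1-/- library (log2 difference 0.33, SE 0.07). Mbd4 encodes a DNA glycosylase that removes thymine from mismatches arising at methylated CpG sites. Its values were 2.65, 3.23 and 3.53 in Tnfr1-/-, against 2.17, 2.20, 2.40, 2.56 and 2.40 in WT (0.37, SE 0.08). Tmcc1, a protein of the endoplasmic reticulum membrane, had 14.2, 15.6 and 16.5 in Tnfr1-/-, against 13.5, 13.9, 11.6, 13.4 and 13.5 in WT (0.22, SE 0.06). The groups stood apart in both, though the lowest Tnfr1-/- library of each came close to the highest WT library. Depp1, Tmem72, Tmcc1 and Mbd4 all lie within chr6:115840697-116716913, 8.63 to 9.50 Mb from Tnfrsf1a. Among the 6 tested genes of that stretch that are not in the list, the groups overlapped in all. The list and the bounds of the stretch were set with such values known, so nothing is read from this.

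Foxj2, a forkhead transcription factor, lies apart from these, 2.504 Mb from Tnfrsf1a. It had 10.4, 10.7 and 12.0 in Tnfr1-/- (lowest, median, highest), against 9.08, 9.60, 9.61, 10.4 and 9.25 in WT (log2 difference 0.18, SE 0.06). WT replicate 4 at 10.43 and Tnfr1-/- replicate 6 at 10.45 were nearly level, so the separation of the groups rests on a gap smaller than the spread within either.

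**Figure D3:**
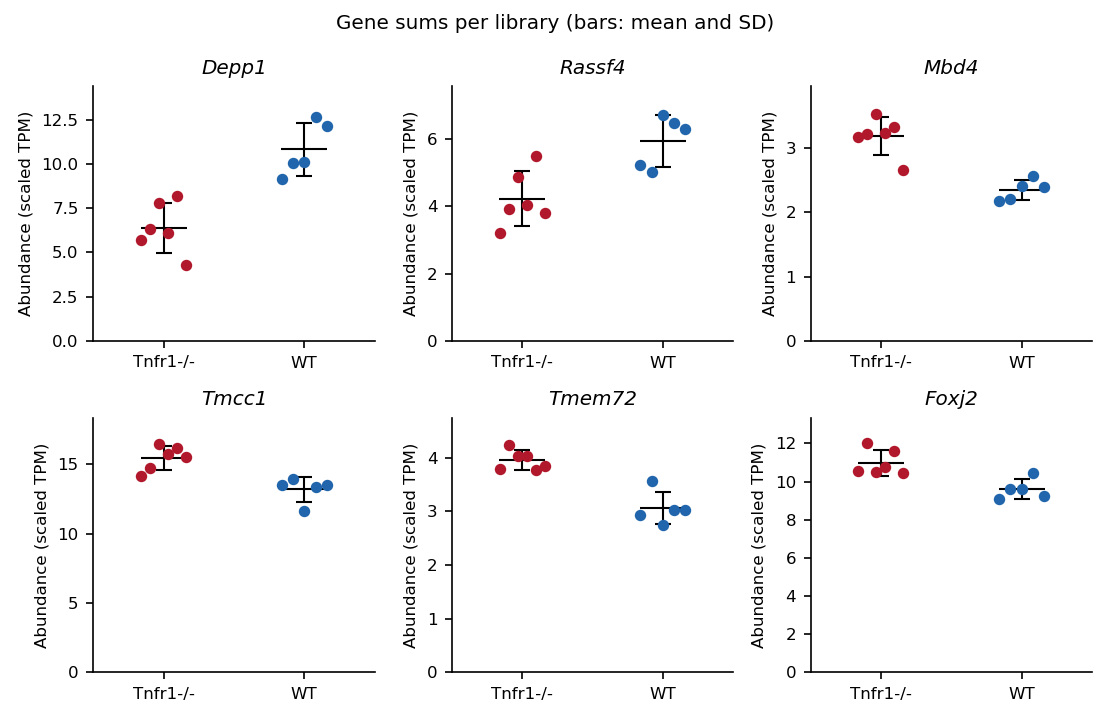
Abundance (scaled TPM, vertical axis, from 0) of 6 members in each library, Tnfr1-/- left and WT right, with group mean and SD. Depp1 averages 6.40 in Tnfr1-/- and 10.8 in WT with no overlap, while the Foxj2 groups nearly touch.

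**Figure D4:**
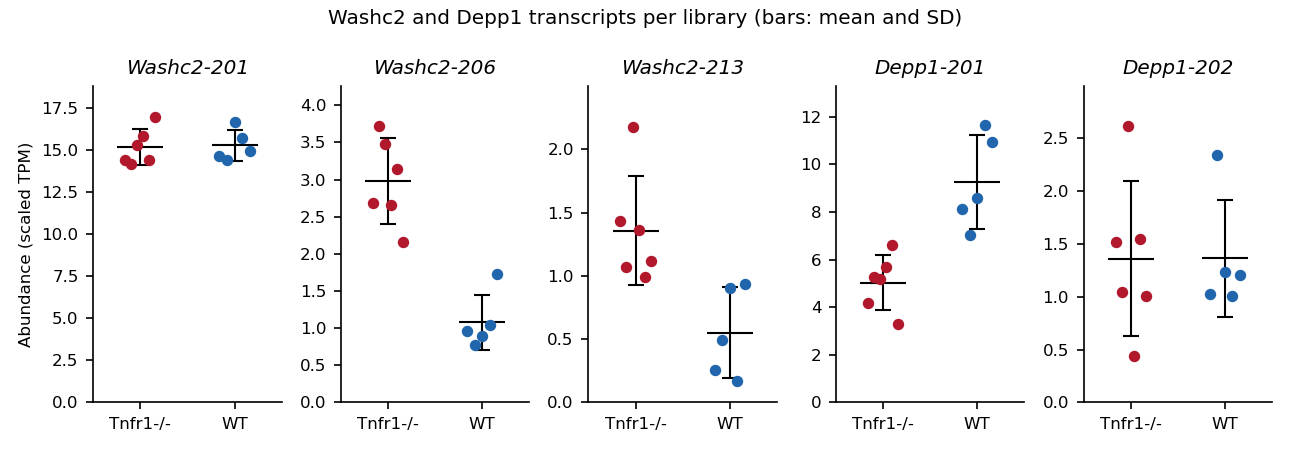
Abundance (scaled TPM, vertical axis, from 0; scales differ) of 3 Washc2 and 2 Depp1 transcripts per library, with group mean and SD. Washc2-206, Washc2-213 and Depp1-201 have groups that do not overlap, and Washc2-201 and Depp1-202 have groups that do.

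The other members at 113 to 117 Mb had overlapping groups. Arpc4, a subunit of the Arp2/3 complex that branches actin filaments, averaged 142.5 ± 3.43 in Tnfr1-/- and 161.5 ± 13.6 in WT (log2 difference -0.18). Its WT values were 180, 171, 155, 146 and 156, the highest in replicates 1 and 2, the libraries rich in epithelial markers. Ttll3, a tubulin glycine ligase that overlaps Arpc4 on the same strand over 1189 bases, averaged 3.10 ± 0.544 in Tnfr1-/- and 2.32 ± 0.433 in WT (0.35). The overlap is that of the gene spans, and whether exons of Arpc4 and Ttll3 share reads there was not tested. Irak2, a kinase downstream of Toll-like and interleukin-1 receptors, averaged 13.5 ± 1.14 in Tnfr1-/- and 16.4 ± 1.17 in WT (-0.26). Jagn1, a protein of the endoplasmic reticulum that neutrophils need, averaged 31.4 ± 1.32 in Tnfr1-/- and 34.3 ± 2.04 in WT (-0.13). Hrh1, the histamine H1 receptor, averaged 4.71 ± 0.547 in Tnfr1-/- and 3.56 ± 0.443 in WT (0.36). Vgll4, a cofactor that binds TEAD transcription factors, averaged 29.3 ± 1.38 in Tnfr1-/- and 25.3 ± 1.72 in WT (0.21), and the groups overlapped only because Tnfr1-/- replicate 6 at 27.7 was below WT replicate 2 at 27.8. Mkrn2, a makorin zinc finger protein, was at 9.51 ± 1.05 in Tnfr1-/- and 8.94 ± 1.29 in WT (0.09).

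Closer to Tnfrsf1a lie Rimklb, Mfap5, Foxj2, Pex5, Clstn3 and C1rl. Rimklb, which makes the neuropeptide N-acetylaspartylglutamate, was low, at 0.414 to 1.39 in Tnfr1-/- and 1.05 to 3.03 in WT. Its log2 difference of -0.69 (SE 0.28) is understated at such levels, and its values rest on an estimated 21.96 to 116 reads per library. Mfap5, a glycoprotein of elastin-associated microfibrils made by fibroblasts, averaged 60.4 ± 12.0 in Tnfr1-/- and 54.4 ± 21.7 in WT. Its lowest libraries were WT replicates 1 and 2, at 36.7 and 35.2, which also had the lowest fibroblast marker sums. Without those libraries the log2 difference of 0.21 turned to -0.13. The part of cell makeup in this was not tested. Pex5, the receptor that imports peroxisomal enzymes, was at 19.6 ± 0.755 in Tnfr1-/- and 20.01 ± 1.08 in WT. Clstn3, a calsyntenin, was at 4.08 ± 0.632 in Tnfr1-/- and 4.34 ± 0.548 in WT, and C1rl, a complement C1r-like protease, at 1.46 ± 0.295 in Tnfr1-/- and 1.62 ± 0.309 in WT.

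The cluster around Tnfrsf1a holds several glycolysis genes, and their levels were close in the 2 genotypes. Gapdh, which oxidises glyceraldehyde phosphate and is a common reference gene, had 1597, 1764 and 2378 in Tnfr1-/- (lowest, median, highest), against 1849, 2016, 1647, 1650 and 1986 in WT, a log2 difference of 0.00 (SE 0.10). Tpi1, triosephosphate isomerase, averaged 560 ± 52.0 in Tnfr1-/- and 555 ± 40.8 in WT (0.01). Both were highest in Tnfr1-/- replicate 2, the library with skeletal muscle markers at 3933. So was Iffo1, an intermediate filament family gene that overlaps Gapdh on the opposite strand over 68 bases, at 11.3 in that library and 4.62 to 8.54 in the other Tnfr1-/- libraries. Eno2, the enolase of neurons, averaged 9.23 ± 1.37 in Tnfr1-/- and 10.2 ± 2.06 in WT, with its lowest value, 7.31, in WT replicate 2, which also had the lowest neuronal marker sum (90.1). Of the neuronal markers, Uchl1 and Elavl4 were lowest in that library, while Snap25, Ret and Tubb3 were lowest in a Tnfr1-/- library. For Gapdh, Tpi1, Iffo1 and Eno2 too, the part of cell makeup was not tested.

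Nuclear and nucleolar members near Tnfrsf1a differed little. Chd4, the remodelling ATPase of the NuRD complex, averaged 66.3 ± 3.34 in Tnfr1-/- and 61.4 ± 3.00 in WT (log2 difference 0.11). Ncapd2, a subunit of condensin I, averaged 29.96 ± 2.38 in Tnfr1-/- and 34.6 ± 5.02 in WT (-0.20), its WT values being 37.5, 26.2, 37.9, 37.8 and 33.7. WT replicate 2 thus lay with the lowest Tnfr1-/- library, at 26.3. Atn1, the corepressor atrophin 1, was at 17.9 ± 2.06 in Tnfr1-/- and 15.9 ± 1.94 in WT (0.17), with a predicted gene annotated on the same strand over nearly all of it. Ing4, a reader of methylated histone H3 in the HBO1 complex, was at 46.9 ± 2.36 in Tnfr1-/- and 49.7 ± 1.93 in WT (-0.09). Zfp384, Nop2, Emg1 and Cops7a, which are a zinc finger factor, 2 enzymes that modify ribosomal RNA and a COP9 signalosome subunit, had differences of 0.00, -0.01, -0.12 and -0.01. Mlf2, of the myeloid leukemia factor family, had a difference of -0.03. Ptms, an acidic nuclear protein called parathymosin, had one of 0.05 at the high level of 1013 ± 71.9 in Tnfr1-/- and 985 ± 160 in WT.

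Immune and membrane genes of the cluster had overlapping groups as well. Ptpn6, the phosphatase SHP-1 of blood cells, averaged 18.4 ± 1.31 in Tnfr1-/- and 19.9 ± 1.58 in WT. Tapbpl, which edits peptides on MHC class I, averaged 14.7 ± 1.35 in Tnfr1-/- and 16.8 ± 5.55 in WT, where replicate 1 stood at 25.3. Its log2 difference was -0.13 with all libraries and 0.03 without that replicate. Cd27, a TNF receptor family member of lymphocytes, was at most 0.928 in Tnfr1-/- and 1.09 in WT and was not tested, nor was Lrrc23, a gene of cilia and sperm flagella that averaged 0.603 in Tnfr1-/- and 0.674 in WT. Acrbp, known as a binding protein of the sperm protease acrosin, differed upward, its mean in Tnfr1-/- being 1.34 times that in WT (1.36 times for Mbd4). It had 5.84, 7.89 and 9.26 in Tnfr1-/- (lowest, median, highest), against 5.39, 7.29, 5.43, 4.34 and 5.84 in WT (log2 difference 0.40, SE 0.14), and WT replicate 2 lay within the Tnfr1-/- range. Lpar5, a receptor for lysophosphatidic acid, averaged 5.29 ± 0.664 in Tnfr1-/- and 4.53 ± 0.992 in WT (0.22). Vamp1, a synaptobrevin of vesicle fusion, overlaps Tapbpl and Cd27 on the opposite strand and was at 8.73 ± 0.514 in Tnfr1-/- and 8.99 ± 1.28 in WT. Gpr162, an orphan receptor, was at 2.45 ± 0.215 in Tnfr1-/- and 2.69 ± 0.875 in WT (-0.07). Without WT replicates 1 and 2, at 1.96 and 1.56, its groups did not overlap and the difference was -0.37. Plekhg6, a guanine nucleotide exchange factor whose 3′ end lies beside Tnfrsf1a, was at 9.51 ± 1.42 in Tnfr1-/- and 9.82 ± 0.435 in WT. Cd9, a tetraspanin, averaged 382 ± 53.5 in Tnfr1-/- and 349 ± 69.1 in WT (0.14).

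Of the remaining members of the cluster, Lpcat3 remodels phospholipids, Phb2 is a prohibitin of the inner mitochondrial membrane, Mrpl51 is a mitochondrial ribosome protein and Usp5 is a deubiquitinase. Their differences were -0.08, -0.09, -0.08 and -0.04 on the log2 scale. On the telomere side, Ccnd2 (cyclin D2) averaged 73.7 ± 7.69 in Tnfr1-/- and 66.1 ± 3.25 in WT, Parp11 (a mono-ADP-ribosyltransferase) 7.202 ± 0.601 in Tnfr1-/- and 7.43 ± 1.03 in WT, and Tead4 (a TEAD transcription factor) 4.08 ± 0.966 in Tnfr1-/- and 3.50 ± 0.467 in WT. The groups overlapped in all 3.

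**Figure D5:**
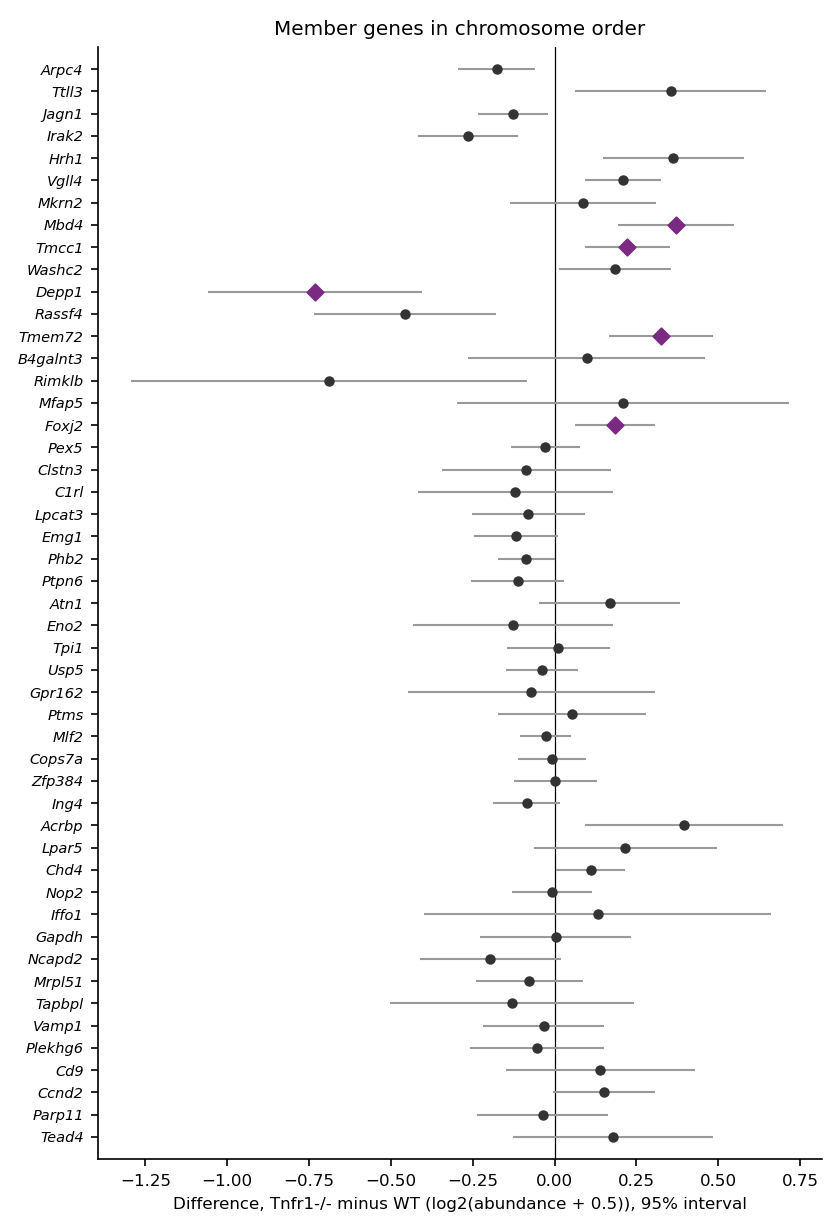
Difference between Tnfr1-/- and WT (horizontal axis, log2(abundance + 0.5)) of the 49 tested members, from the centromere side at the top, with 95% intervals from limma. Diamonds mark the 5 members whose groups do not overlap, and the range runs from -0.73 for Depp1 to 0.40 for Acrbp.

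Genes of the region that are not in the list were tested as part of all genes, and none of the 122 passed. They had an unadjusted p under 0.05 in 15 cases (12.3%) and groups that did not overlap in 3, all lower in Tnfr1-/- (2.46%). The list was taken out of the region for its values, so these shares are not those of the region as a whole, which were 18.1% and 4.68% of 171 genes. The smallest p belonged to Bid, a BH3-only protein that carries death receptor signals to mitochondria, at 6.84 ± 0.407 in Tnfr1-/- and 11.1 ± 1.53 in WT (log2 difference -0.65, limma adjusted p = 0.0574). It passed in 1 of 18 alternatives, without WT replicate 1 (limma adjusted p = 0.0389), and its adjusted p over all 18 ran up to 0.304. Ltbr, the lymphotoxin beta receptor beside Tnfrsf1a, was at 69.2 ± 2.97 in Tnfr1-/- and 76.0 ± 2.21 in WT (-0.14, limma adjusted p = 0.393). Cdca3, a cell cycle gene, was at 34.5 ± 2.76 in Tnfr1-/- and 41.1 ± 3.72 in WT (limma adjusted p = 0.393). Bms1, a ribosome assembly GTPase, was at 15.2 ± 0.513 in Tnfr1-/- and 13.9 ± 0.620 in WT (limma adjusted p = 0.433).

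Partners of the members that lie elsewhere in the genome were read from 11 lists of complexes, pathways and, for Gapdh, other reference genes. Of 78 tested genes of these lists, none was called, and 6 had an unadjusted p under 0.05 (7.69%, against 9.37% of all genes). The groups did not overlap in 2, Washc5 and Actb, both lower in Tnfr1-/- (background 1.49% in either direction). Of all 15079 tested genes, 7855 had a lower mean in Tnfr1-/-. Among 4 WASH complex partners of Washc2, Washc5 was at 18.6 to 19.3 in Tnfr1-/- and 19.8 to 20.5 in WT, and Washc3 averaged 36.2 ± 1.44 in Tnfr1-/- and 39.7 ± 2.33 in WT (limma adjusted p = 0.525 and 0.454). All 7 partners of Arpc4 in the Arp2/3 complex had lower means in Tnfr1-/-, with a median difference of -0.09 and none at an unadjusted p under 0.05. WT replicates 1 and 2, rich in epithelial markers, were the highest for several of them, such as Actr3 at 338 and 331, against 250 to 281 in Tnfr1-/- and 255 to 263 in the other WT libraries. The part of cell makeup in this was not tested. All 7 COP9 partners of Cops7a also had lower means, with a median of -0.04 and Cops3 alone at such a p. Among 11 NuRD partners of Chd4, 6 had higher and 5 lower means, with Gatad2b at such a p. Among 6 tested genes of the TEAD and Hippo list, 5 had higher means, Yap1 among them at 36.4 ± 1.99 in Tnfr1-/- and 33.2 ± 0.994 in WT (limma adjusted p = 0.451). The 14 symbols of the glycolysis list match 15 genes of the table, Aldoa standing for 2 with opposite differences, and of these 6 had higher and 9 lower means with none at such a p. Condensin I, prohibitin, peroxisomal import and the Irak2 pathway lists had none either.

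Of 8 reference genes often used beside Gapdh, 6 had lower and 2 higher means in Tnfr1-/-, and none was called. Actb, cytoplasmic beta-actin, had the smallest p of all genes of the partner lists. It was at 1507 ± 102 in Tnfr1-/- and 1832 ± 136 in WT, with groups that did not overlap (log2 difference -0.28, SE 0.07, limma adjusted p = 0.289). Gapdh differed by 0.00 with a 95% interval of -0.23 to 0.23, and by -0.07 without Tnfr1-/- replicate 2. Actb was picked for its p, and whether its difference departs from that of Gapdh was not tested.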

How the data were processed

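Stranded mRNA libraries from the colon gave single-end reads of 75 bases, per the labels' protocols. Per the submitters' processing notes, kallisto, sleuth and CASAVA were used with the mouse build mm10; no versions are given. The authors deposited a normalized signal for each library, which has the form of TPM after sleuth's size factors, and the deposited mean over samples is on a natural log (ln) scale. The table has 113991 lines for 113193 transcripts; 584 transcripts were repeated with the same values and counted once, and 97 without a gene (0.031% of abundance) were left out.

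Transcripts were summed per Ensembl gene. Features with a value of at least 1 in at least 5 libraries were tested in limma 3.58.1 on log2(value + 0.5) (trend, two-sided, Benjamini-Hochberg adjustment over all features, called under 0.05) in R 4.3.3; the steps were tested on simulated data. Such differences understate changes of low genes. Count tests were not run, because many low values were not near whole reads. At the factor used, the smallest that scored near the best, 55.2% to 58.3% of low values lay within 0.02 of a whole read. The depths come from that factor and are estimates. Mean ± SD is over 6 Tnfr1-/- and 5 WT libraries. Tables and figures were made in Python 3.11.15 (matplotlib 3.10.9, numpy 2.4.6, pandas 2.3.3). Positions, exons and sequences are from GENCODE M21 (GRCm38), which 339 of the 340 transcripts matched.

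The members, gene lists and tests were chosen with earlier results of these data known. Named are Tnfrsf1a, every member, member transcripts without overlap between groups that differ by at least 1 on the log2 scale with a group mean of at least 1 or whose share shifts by at least 15 points in a gene with a mean of at least 5, the 5 region genes outside the list with the smallest p, and up to 2 partners per list; predicted genes were counted, not named. Others were chosen after their values were seen. A gene that the rule takes is not reported here. Alternatives were other pseudocounts, filters and scalings, the replicate number as a block, and leaving out libraries.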

Additional observations from a re-analysis of the deposited data

Results flagged for a closer look

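Each of 110 groups of libraries (each member and named transcript in each genotype) was examined for a library far from the rest, and 9 were flagged, where chance alone flags about 5.5. In Tnfr1-/-, Clstn3 was lowest in replicate 5 (2.90, next 3.98), Ing4 was lowest in replicate 2 (42.2, next 47.2) and Mrpl51 was highest in replicate 2 (129.8, next 115), the library with the highest skeletal muscle markers. In WT, Tmcc1 was lowest in replicate 3 (11.6, next 13.4), Phb2 lowest in replicate 4 (148, next 161) and Washc2-206 highest in replicate 5 (1.72, next 1.04). WT replicate 2, with the highest epithelial markers, was highest for B4galnt3 (20.3, next 14.8) and Ptpn6 (22.7, next 19.7) and lowest for B4galnt3-201 (0.355, next 2.35).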

How the results depend on the processing

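Tnfrsf1a was called under all 19 alternatives, with a log2 difference of -1.64 to -1.51 (limma adjusted p 2.5e-05 to 0.00697). No member gene was called under any of them, with 12 to 16 at an unadjusted p under 0.05 when a single library was left out. Over all genes, such counts then ran from 1072 of 14983 (without Tnfr1-/- replicate 4) to 1756 of 15006 (without WT replicate 4). With a filter at 10, fewer members were tested, of which 14 had a higher mean and 8 an unadjusted p under 0.05. Of all 8872 genes tested at that filter, 931 had such a p. Without WT replicates 1 and 2, 5 transcripts were called, 1 of them a member (B4galnt3-201), and the groups of 13 members (25.5%) did not overlap, against 9.09% of all tested genes, since fewer libraries make overlap rarer by construction. The members gained were Rassf4, Hrh1 and Vgll4 and, nearer to Tnfrsf1a, Gpr162, Ing4, Lpar5, Ncapd2 and Cd9. Leaving out 1 library at a time gave 1 to 2 called genes (2 without WT replicate 1, when Bid was called, so that 0 to 1 region gene outside the list was), 1 to 10 called transcripts, 0 to 1 called member transcripts and 5 to 9 members without overlap (9.80% to 17.6%, against 1.77% to 3.41% of all tested genes). B4galnt3-201 was called without WT replicate 2, when 10 transcripts were called and 9 members did not overlap, and Washc2-206 without WT replicate 5. WT replicate 2 was the library flagged as lowest for B4galnt3-201 (0.355), and WT replicate 5 the one flagged as highest for Washc2-206 (1.72). Both transcripts belong to genes listed with these differences known, so nothing is read from these calls. Without Tnfr1-/- replicate 1, and without WT replicate 4, 8 members did not overlap. The cause was not tested.

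The share of B4galnt3-201 stayed 46.8 to 53.6 points higher and that of Washc2-206 7.35 to 9.04 points higher in Tnfr1-/- than in WT in the 12 settings that give shares. Correlations of same-numbered deviations were 0.27, -0.01, 0.38, -0.22 and 0.33, and 1 Tnfr1-/- library matched its own number best. So few values do not settle whether replicate numbers pair the libraries. With the replicate number as a block, Tnfrsf1a had -1.64 (limma adjusted p = 0.00189), and 0 members and 2 transcripts were called. In that setting 17 members had an unadjusted p under 0.05, as did 1542 of all 15079 genes. The sign of the difference turned under some alternative in 14 of the 49 members, Mfap5 having the largest difference among them (0.21). No scaling moved the median of all genes by 0.1. The fewest estimated reads per library were those of Cd27 (4.99), Lrrc23 (6.99), Rimklb (21.96), Ttll3 (71.5) and C1rl (85.0).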
